A study of Mus musculus with 9 samples.

Results

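The transcriptional state that MyC-CaP cells had reached after 24 hours with recombinant ASPN was compared with time 0 across all protein-coding genes of the deposited count table. The comparison was chosen by its labels alone and used 6 of the 9 RNA-Seq libraries analysed, 3 of 24 hours and 3 of time 0, with 3 libraries of 12 hours set beside them. All 15384 protein-coding genes of the table belong to it, of which 11444 passed a filter on low counts and were tested, and 3940 did not. MyC-CaP cells were derived from a prostate tumor of the Hi-Myc mouse, in which a human MYC transgene is driven in prostate epithelium by a promoter that responds to androgen, and the cells themselves respond to androgen. Before treatment, the cells of every group were starved in medium without serum and calcium. The 12 and 24 hour libraries then received 100 ng/mL recombinant mouse ASPN (asporin), a small leucine-rich proteoglycan that stromal fibroblasts of tumors secrete. For the 0 hour libraries, used as time 0, the labels name ASPN as treatment too. None of the libraries analysed here is of cells kept for 24 hours without ASPN, so the treatment and the hours in culture after starvation cannot be told apart. The libraries of a group are labeled biological replicates and come from wells plated in triplicate, so that p-values measure the spread between wells of this line.

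Several pathways organise the results. NF-kB is a family of transcription factors that cytokines and damage release from inhibitor proteins in the cytoplasm. Its targets include chemokines, which attract neutrophils and monocytes, and the inhibitors themselves, so that the response limits itself. ErbB receptors, among them EGFR, ERBB2 (HER2) and ERBB3 (HER3), signal through ERK and AKT, and ERK switches on the immediate early genes within minutes of a growth signal. Prostate luminal cells depend on androgen and on factors such as FOXA1 that open chromatin. Mitochondria carry their own small genome, whose mRNAs encode the core subunits of the respiratory chain and are transcribed and translated apart from nuclear mRNAs.

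Library totals on protein-coding genes were 41881191 to 52993821 counts over the 9 libraries, and a floor of 3 counts corresponded to at most 0.0716 CPM, counts per 1000000 counts. The libraries of 24 hours stood apart from the others in composition, with scaling factors of 0.899 to 0.914 against 1.04 to 1.07 at time 0, and 9.81% to 10.1% of their counts lay on 10 genes against 7.51% to 8.02%. On the first principal component of the 6 libraries, which held 82.0% of the variance, the groups separated. The labels describe the cells as epithelial-like. Of 13 luminal epithelial markers, Cldn3, Krt8, Krt19 and Hoxb13 were expressed at 24.8 CPM or more in every time 0 library, whereas Epcam, Cdh1 and Cldn7 were at 0.211 CPM or less in each library of time 0 and 24 hours. The 13 luminal markers summed to 4021 to 4279 CPM at time 0 and 2917 to 2951 CPM at 24 hours, and of the 9 tested 2 were called higher and 2 lower. The part of this shift in the results was not tested. Markers of leukocytes (5 of 8 in the table, 0.291 to 0.815 CPM in sum at time 0 and 0.611 to 0.766 at 24 hours), endothelial cells (4 of 5, 0.386 to 0.415 and 0.207 to 0.464) and fibroblasts (5 of 9, 13.0 to 14.1 and 9.11 to 10.5, nearly all Pdgfra) were low at both times. Basal markers (4 of 4) summed to 97.0 to 128 CPM and 112 to 126 CPM, nearly all Krt15, and neuroendocrine markers (3 of 5) to 60.3 to 68.2 and 59.1 to 65.9, nearly all Ncam1.

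After 24 hours, 3298 of 11444 tested genes (28.8%) were called, meaning that edgeR's quasi-likelihood test gave them a Benjamini-Hochberg adjusted p no higher than 0.05 and that they changed by a factor of 1.5 or more. Of these, 1374 were higher (12%) and 1924 were lower (16.8%) than at time 0. Most changes were modest, since 400 genes rose and 848 fell at least 2-fold, while 31 rose and 22 fell at least 8-fold. Another 4821 genes had an adjusted p of 0.05 or less with a change below 1.5-fold. For 8459 genes (73.9%), the CPM of the 3 libraries of 24 hours lay entirely above or entirely below those of time 0. Relative to 12 hours, 2924 of 11394 genes were called at 24 hours (25.7%), 1184 higher (10.4%) and 1740 lower (15.3%). Between time 0 and 12 hours, 182 of 11410 genes were called (1.6%), 171 higher (1.5%) and 11 lower (0.0964%). The comparisons share libraries, so their values are given side by side and no agreement is read from them. The median log2 fold change over all tested genes was -0.02. Scaling by total counts instead of trimmed means moved that median to -0.24 and gave 698 genes higher and 3008 lower, and all fold changes below are relative to the trimmed-mean scaling. Where no member of a gene list below was called in a direction, by edgeR 0 to 11 of its members differed that way at an unadjusted p under 0.05 (most in mitochondrial ribosomal proteins, 11 of 76, and G2/M genes, 10 of 33, lower), and DESeq2 called 0 in any of these lists, while limma-voom called 1, a lower gene of the glycolysis and hypoxia list. In bulk libraries, fewer cells of a kind and less RNA per cell cannot be told apart.

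**Figure D1:**
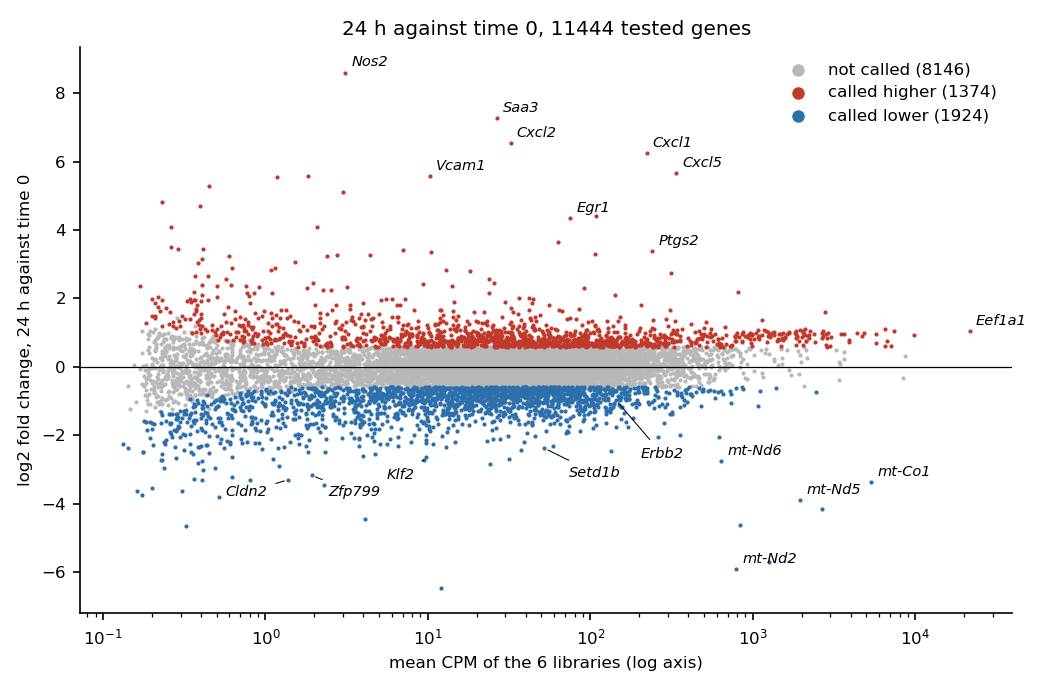
Each point is 1 of 11444 tested genes, with the mean CPM of the 6 libraries on a log axis and the log2 fold change of 24 hours against time 0 on the vertical axis. The 1374 genes called higher (red) include Nos2, Saa3 and chemokines at the top, and the mitochondrial mRNAs are the abundant genes at the bottom among the 1924 called lower (blue).

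Chemokines that attract neutrophils were among the largest rises. Cxcl1 measured 5.27, 7.34 and 4.79 CPM in the time 0 libraries and 404, 484 and 426 CPM at 24 hours. Cxcl5, a related ligand of the receptor CXCR2, went from 11.1, 15.1 and 13.1 CPM to 620, 718 and 637 CPM. Cxcl2 was low at time 0, with 0.872, 0.686 and 0.532 CPM, and reached 59.0, 70.7 and 61.7 CPM. The groups of all 3 genes were far apart, with log2 fold changes of 6.25 ± 0.12 (SE), 5.66 ± 0.09 and 6.53 ± 0.17 and adjusted p of 3.0e-13, 1.6e-13 and 3.0e-13. They lie with Cxcl3 (log2 fold change 5.54 ± 0.67) and Cxcl15 in a cluster on chromosome 5 of GRCm38, between the start of Cxcl5 at 90759360 and the end of Cxcl2 at 90905938. Cxcl15, also called lungkine, was already expressed at 151, 146 and 150 CPM and rose to 470, 464 and 465 CPM, a log2 fold change of 1.65 ± 0.04. Of 13 tested chemokine ligands, 9 rose and 0 fell, with a median log2 fold change of 2.16 against -0.02 over all tested genes. The remaining risers were Ccl2, Ccl5, Cxcl10 and Ccl25, all below 6 CPM at 24 hours. The ligands together took 0.0235%, 0.0236% and 0.0228% of the counts at time 0 and 0.146%, 0.163% and 0.147% at 24 hours. Much of this was in place at 12 hours, when 6 ligands were higher than at time 0, whereas from 12 to 24 hours 5 rose further and Cx3cl1 alone fell, with a log2 fold change of -0.82.

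Promoter sequences with an NF-kB-like match upstream of the RefSeq start are shown for 6 of the genes described here, 4 chemokines, an inhibitor and an NF-kB subunit, with 1 window each. The windows are from GRCm38.p6, printed 5′ to 3′ on the strand of the gene, and capitals mark letters that match GGGNNNTTC, which takes in the stricter GGGANTTTC, on either strand. Cxcl1 is chr5:90891145-90891196 on the plus strand, Cxcl2 chr5:90903790-90903841 on the plus strand, Cxcl3 chr5:90786016-90786071 on the plus strand, Cxcl10 chr5:92348973-92349005 on the minus strand, Nfkbia chr12:55492655-55492687 on the minus strand and Nfkb2 chr19:46304688-46304736 on the plus strand.
Cxcl1: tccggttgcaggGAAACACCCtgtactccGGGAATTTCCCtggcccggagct
Cxcl2: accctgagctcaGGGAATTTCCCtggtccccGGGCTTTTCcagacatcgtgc
Cxcl3: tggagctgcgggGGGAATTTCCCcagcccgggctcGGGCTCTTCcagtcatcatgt
Cxcl10: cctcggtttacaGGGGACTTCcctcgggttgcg
Nfkbia: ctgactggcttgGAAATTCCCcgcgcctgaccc
Nfkb2: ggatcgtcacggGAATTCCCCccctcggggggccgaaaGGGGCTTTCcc
In Cxcl1, Cxcl2 and Cxcl3 the matches begin 88, 97 and 73 bases before the start. Of 35 genes looked up, which were the risers of the chemokine, NF-kB and acute-phase lists and the genes with the highest folds, 22 had a window and 9 of these held a match upstream of the start. The genes with a match not shown here were Nfkbie, Rel and Tnfaip3. Across the whole 300-base windows, GGGNNNTTC was found in 17% of 1068 genes called higher, 15.5% of 1496 called lower and 15.4% of 9147 tested, and in 14% of all 32851 windows. The stricter GGGANTTTC was found in 1.5%, 0.668%, 0.896% and 1.11% of the same windows. A match is a string of letters and was not shown to be a bound site. The looser motif was added after the data were seen.

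Most NF-kB subunits and inhibitors were higher at 24 hours than at time 0, and 7 of the inhibitors had been higher still at 12 hours. Relb, the subunit of the non-canonical pathway, went from 8.76, 8.13 and 6.92 CPM to 37.6, 48.5 and 43.5 CPM (log2 fold change 2.45 ± 0.10). The inhibitor Nfkbia (IkB-alpha) went from 92.7, 93.7 and 90.7 CPM to 284, 344 and 331 CPM, and the ubiquitin-editing inhibitor Tnfaip3 (A20) from 85.4, 85.2 and 74.5 CPM to 201, 239 and 227 CPM. Of 16 tested members, 10 rose and 0 fell, 3 of 5 subunits and 7 of 11 inhibitors, with a median log2 fold change of 1.09. Rela, the main activating subunit, changed by 0.27 ± 0.05 and was below the fold threshold. Relative to 12 hours, 0 members were higher and 7, all inhibitors, were lower by the same edgeR test. The clearest decline was in Nfkbiz (IkB-zeta), a nuclear cofactor of secondary NF-kB targets, which averaged 199 CPM at 12 hours and measured 59.2, 66.6 and 66.2 CPM at 24 hours against 17.9, 22.1 and 21 CPM at time 0.

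Of 8 tested acute-phase and antimicrobial genes, 8 were called higher at 24 hours against time 0 and 4 against 12 hours. The smallest rise was that of Cp (ceruloplasmin, 0.59), whose call was lost without replicate 3 of 24 hours (0.57) or replicate 2 of time 0 (0.58), with other filters on low counts (0.58 with at least 10 counts in every library and 0.58 with none) and with a correction for exon length and GC content (0.44). Lcn2 (lipocalin 2, which binds bacterial siderophores) measured 10.9, 8.62 and 10.1 CPM at time 0, averaged 51.7 CPM at 12 hours and reached 190, 209 and 221 CPM at 24 hours, a log2 fold change of 4.39 ± 0.08. C3, the central complement component, went from 10.1, 9.72 and 8.43 CPM to 111, 114 and 124 CPM (3.64 ± 0.07). Saa3, a serum amyloid A made outside the liver, had the second highest fold among genes with at least 50 counts, from 0.166, 0.493 and 0.367 CPM to 54.8, 51.4 and 52.8 CPM (7.27 ± 0.23). Saa1 and Saa2, other serum amyloid genes of the list, are near-identical copies, so the split of reads between that pair is uncertain. Of 13 tested members of this group, 10 rose, 6 of them also relative to 12 hours, and the median log2 fold change was 1.22. The only member called lower was C2, which cleaves into an early complement protease, at 0.581, 0.30 and 0.477 CPM and then 0.0733, 0.269 and 0.190 CPM. Its call was lost without replicate 1 or 3 of either group, with log2 fold changes of -0.97, -1.34, -1.08 and -1.26 in place of -1.30.

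The highest fold among genes that averaged 50 or more normalized counts was that of Nos2, the inducible nitric oxide synthase, with 0, 2 and 0 counts at time 0 and 208, 401 and 241 counts at 24 hours. From these totals of 2 and 850 counts the ratio was 464, with a 95% counting interval of 128 to 3.84e+03. Tnf, the cytokine that gives NF-kB signaling its best known trigger, had 0 counts in the 3 libraries of time 0 and 41 counts in those of 24 hours, at least 14.9-fold higher. Vcam1, an adhesion molecule for leukocytes, went from 0.353, 0.622 and 0.312 CPM to 19.5, 21.2 and 19.6 CPM (5.57 ± 0.21). Csf3, the growth factor of neutrophils, went from 0.104, 0.0858 and 0.0367 CPM to 2.93, 3.98 and 3.88 CPM (5.57 ± 0.47). In the list of interleukins, their receptors and STAT3 signaling, 7 of 33 tested members rose and 4 fell, with a median of -0.08. Lif, an interleukin 6 family cytokine, and Csf1, the growth factor of macrophages, were among the risers, with 9.16, 9.91 and 9.71 CPM and 25.2, 35.1 and 26.1 CPM for Lif and 20.1, 21.8 and 21.6 CPM and 44.4, 61.4 and 56.0 CPM for Csf1. Csf1 had been higher at 12 hours, at a mean of 120 CPM. Socs1, an inhibitor of cytokine receptor signaling, fell from 2.18, 2.06 and 2.19 CPM to 0.928, 0.891 and 0.760 CPM.

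**Figure D2:**
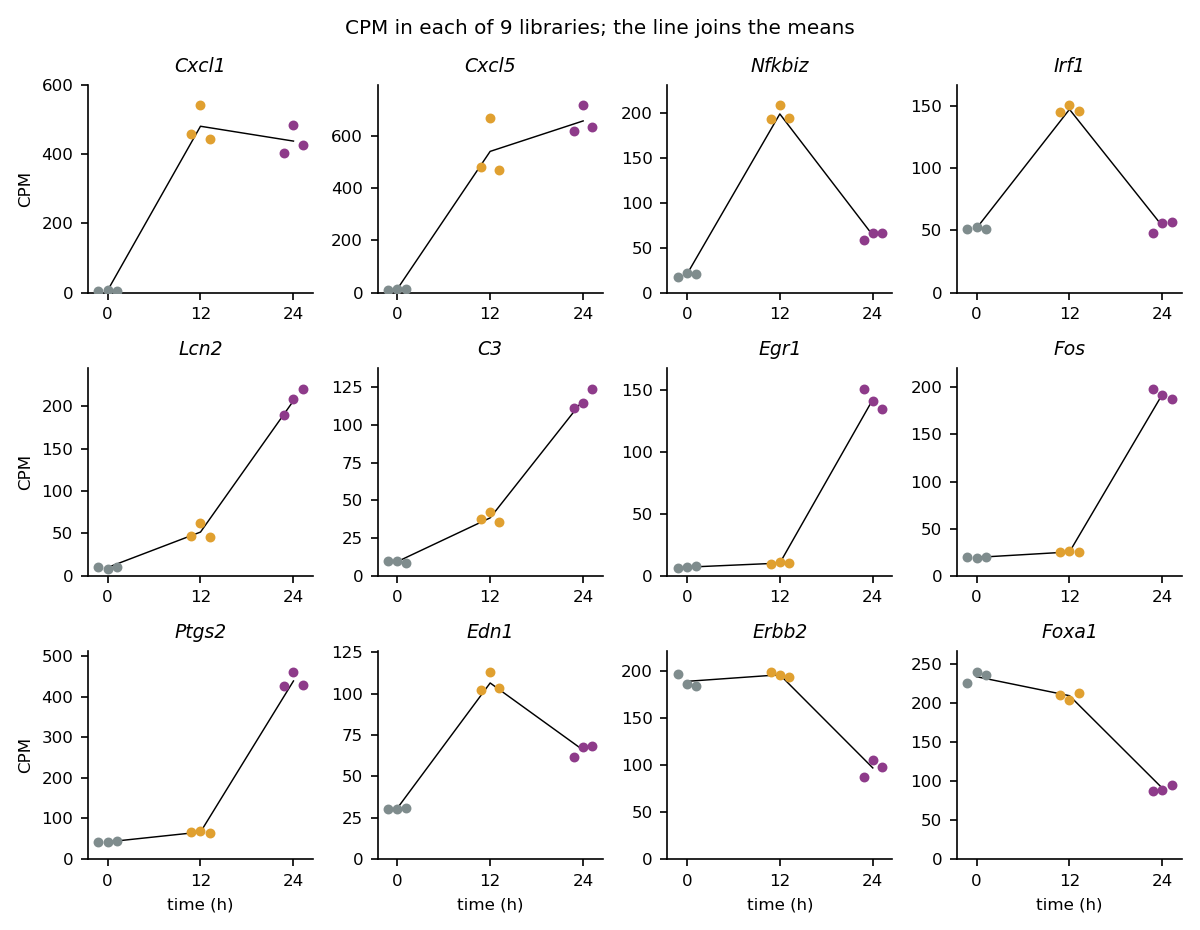
Points show the CPM of 12 genes in each of the 9 libraries against hours, each panel on its own linear axis from 0, and lines join the means of 3 libraries. Cxcl1 and Cxcl5 had risen by 12 hours, Nfkbiz, Irf1 and Edn1 peaked at 12 hours, and Lcn2, C3, Egr1, Fos and Ptgs2 were highest at 24 hours, when Erbb2 and Foxa1 were lowest.

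Interferon response genes were mixed. Of 22 tested members, 7 rose and 3 fell, with a median log2 fold change of 0.12. Gbp2, a guanylate-binding protein of antimicrobial defense, went from 2.33, 1.67 and 1.62 CPM to 17.7, 19.2 and 20.1 CPM (3.35 ± 0.13). Irf1, a transcription factor of the interferon response, measured 51.3, 52.7 and 51.1 CPM at time 0 and 47.5, 55.8 and 56.7 CPM at 24 hours, having averaged 147 CPM at 12 hours. The genes that fell were Stat2 (-0.74 ± 0.06), a subunit of the factor that interferons activate, Parp14 (-0.90 ± 0.08), an ADP-ribosyltransferase, and Dhx58 (-1.68 ± 0.66), a cytoplasmic RNA sensor. Dhx58 was low, at 0.606 CPM or less, and its call was lost without replicate 1 or 2 of 24 hours or replicate 3 of time 0, with log2 fold changes of -1.26, -1.45 and -1.22. Antigen presentation on MHC class I moved in a single direction, with 9 of 13 tested members higher and 0 lower and a median of 0.78. Most of the risers supply peptides. Psmb8 and Psmb9, subunits of the immunoproteasome, went from 4.05, 4.18 and 3.67 CPM to 12.4, 13.1 and 12.2 CPM and from 1.04, 0.858 and 0.826 CPM to 2.39, 3.58 and 3.40 CPM. H2-K1, a class I heavy chain with similar paralogs whose reads may be split, went from 107, 111 and 112 CPM to 202, 235 and 214 CPM, while B2m, the light chain, stayed under the fold threshold at 0.49 ± 0.04.

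Of 18 tested immediate early transcription factors, 5 were called higher and 0 lower at 12 hours against time 0 (median 0.38), and 6 higher and 2 lower at 24 against 12 hours (median 0.29), while Egr1 and Fos rose mostly in the later interval. Egr1 measured 6.17, 7.29 and 7.58 CPM at time 0, averaged 10.3 CPM at 12 hours and reached 151, 141 and 135 CPM at 24 hours, a log2 fold change of 4.35 ± 0.07 (adjusted p 1.6e-13). Fos, a subunit of AP-1, went from 20.3, 18.9 and 19.5 CPM through a mean of 25.4 CPM to 199, 192 and 188 CPM (3.31 ± 0.05). Of 18 tested members, 10 rose, 5 of 8 AP-1 subunits and 5 of 10 members of the EGR, IER and KLF group, with a median of 0.76. Klf2, a factor better known in endothelium and lymphocytes, was the only member that fell, from 16.8, 16.7 and 15.7 CPM to 2.86, 2.22 and 2.41 CPM (-2.72 ± 0.11). Jund, the most abundant AP-1 mRNA of the list by CPM, changed by 0.01 ± 0.10.

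Regulators that limit ERK did not move together. Dusp1, a phosphatase of JNK, p38 and ERK, went from 28.6, 32.6 and 31.0 CPM to 145, 164 and 148 CPM (2.31 ± 0.06), and Dusp10 (0.93 ± 0.09), which prefers JNK and p38, and Spred3 (0.60 ± 0.09) also rose. Spred1 (-0.79 ± 0.04), a RAS inhibitor, Spry4 (-0.68 ± 0.25), a Sprouty protein, and Etv5 (-0.74 ± 0.07), an ETS factor induced by ERK, fell. Dusp6, the phosphatase most specific for ERK, changed by 0.41 ± 0.06 and was below the threshold. The median of the 11 tested members was 0.30. The call of Spred3 was lost without replicate 3 of either group (0.58 at time 0 and 0.58 at 24 hours) and that of Spry4 without replicates 1 or 3 of 24 hours or replicate 3 of time 0 (-0.48, -0.69 and -0.52).

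Among ErbB genes, the receptor Erbb2 fell. It measured 196, 186 and 184 CPM at time 0, averaged 196 CPM at 12 hours and measured 87.5, 105 and 97.6 CPM at 24 hours, a 1.94-fold decrease with no overlap between the groups (log2 fold change -0.96 ± 0.06, adjusted p 9.7e-09). Its partner Erbb3 measured 83.3, 72.3 and 75.6 CPM and then 54.4, 56.9 and 56.5 CPM (-0.46 ± 0.05), and Egfr measured 59.6, 60.4 and 60.3 CPM and then 44.0, 44.7 and 45.2 CPM (-0.42 ± 0.04). Both lay entirely below time 0 but under the fold threshold, and both passed it with total counts, at -0.68 and -0.65. Erbb4 was not detectable at this depth, with 1 count at most in a library. Hbegf, a ligand of EGFR and ERBB4, rose from 6.56, 6.71 and 6.32 CPM to 14.2, 16.7 and 15.6 CPM (1.26 ± 0.09), and the feedback inhibitor Errfi1 (MIG6) from 629, 568 and 558 CPM to 926, 1017 and 981 CPM (0.74 ± 0.05). The other 9 of 12 tested members were not called, and the median of the list was -0.21.

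Prostaglandin genes did not move together, with 2 of 9 tested higher, 2 lower and a median of -0.03. Ptgs2 (cyclooxygenase 2), the inducible enzyme of prostaglandin synthesis, went from 40.8, 42.5 and 43.3 CPM through a mean of 66.5 CPM to 426, 461 and 428 CPM (3.38 ± 0.05). Its constitutive counterpart Ptgs1 fell from 79.7, 74.4 and 78.0 CPM to 54.1, 44.8 and 50 CPM (-0.64 ± 0.06), a call that was lost without replicate 2 of 24 hours (-0.57). Edn1, the vasoconstrictor endothelin 1, was higher than at time 0 (1.11 ± 0.05) but lower than at 12 hours (-0.67). Of the 12 tested members of this list, 4 rose and 2 fell, with a median of -0.00.

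Cytosolic ribosomal protein mRNAs rose nearly as a body at 24 hours. Of 78 tested, 76 rose and 0 fell, and the median log2 fold change was 0.92. At 12 hours 0 were called in either direction by edgeR and their median was 0.04. Rplp0, a stalk protein of the large subunit, measured 5127, 4598 and 4723 CPM at time 0 and 10024, 9567 and 10282 CPM at 24 hours (1.05 ± 0.05). Ribosomal proteins took 9.97%, 9.40% and 9.55% of all counts at time 0 and 16%, 15.2% and 16.1% at 24 hours. The uncalled members were Rpl24 and Rps10, both under 6 CPM. Ribosomal protein genes have many processed copies in the genome, so counts of single members are uncertain.

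The other parts of the translation machinery differed in how far they followed. Of 42 initiation and elongation factors, 20 rose and 1 fell, with a median of 0.56. Eef1a1, the factor that brings aminoacyl-tRNA to the ribosome and the gene with the largest gain in CPM, went from 15248, 13394 and 13861 CPM to 29493, 28371 and 29584 CPM (1.05 ± 0.05). Eef2, which moves the ribosome along the mRNA, went from 7352, 6421 and 6675 CPM to 12889, 12557 and 13188 CPM. Tpt1, a growth-related protein, and Pabpc1, the poly(A)-binding protein, also gained (1.10 ± 0.05 and 0.95 ± 0.04), and all 4 are classic mRNAs with a pyrimidine tract at their start, through which mTOR controls their translation. Eif4g1, the scaffold of the cap-binding complex, was the factor that fell, from 823, 838 and 848 CPM to 454, 504 and 478 CPM (-0.80 ± 0.04), and it was under the threshold after a correction for exon length and GC content (-0.52). In contrast, the 38 genes that build ribosomes had a median of -0.13, with 4 higher and 4 lower. Both were smaller shares than the 12% higher and 16.8% lower of all tested genes. Npm1, a nucleolar chaperone, rose (0.91 ± 0.05), as did Polr1c (0.88 ± 0.05), a subunit shared by RNA polymerases I and III. Among the genes that transcribe ribosomal DNA, Taf1c (-1.34 ± 0.08), Ubtf (-0.92 ± 0.04) and Polr1b (-0.72 ± 0.04) fell, while Taf1d (0.72 ± 0.08), a partner of Taf1c in the selectivity factor of RNA polymerase I, rose. The RNA polymerase I genes thus had 2 of 8 tested members higher and 3 lower, of which Taf1d (0.56) and Polr1b (-0.58) were lost with the same correction.

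All 12 tested mRNAs of the mitochondrial genome fell, the largest loss of any list, with a median log2 fold change of -4.03. They held 2.67%, 2.60% and 2.71% of the counts at time 0, 2.63% to 2.85% at 12 hours and 0.113%, 0.163% and 0.203% at 24 hours. Mt-Nd2 and mt-Nd1, subunits of complex I, went from 1570, 1514 and 1588 CPM to 19.1, 26.8 and 31.1 CPM (a 60.3-fold decrease) and from 2398, 2417 and 2545 CPM to 28.6, 49.0 and 63.5 CPM (51.8-fold). The catalytic subunit of cytochrome oxidase, mt-Co1, went from 10093, 9344 and 9743 CPM to 604, 936 and 1256 CPM (10.4-fold). The smallest fall was that of the scarce mt-Nd4l, from 0.436, 0.365 and 0.386 CPM to 0.0244, 0.104 and 0.0633 CPM (-2.54 ± 0.63). The fall of mt-Nd6 was close to it, from 1152, 1064 and 1106 CPM to 156, 163 and 174 CPM (6.71-fold). The counts of mt-Atp6, mt-Co2 and mt-Co3 were low for abundant transcripts and are uncertain, since the genome holds near-identical nuclear copies of them between which reads cannot be placed. A single time 0 library stood apart in mt-Atp6 (4.15, 4.03 and 63.2 CPM, then 0.147, 0.352 and 0.295 CPM) and in mt-Co3 (2.58, 18.3 and 2.75 CPM, then 0.293, 0.414 and 0.359 CPM), and mt-Atp6 was not called by DESeq2 or limma-voom.

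Of nuclear genes of the same organelle none was called lower in these lists. Of 75 nuclear-encoded respiratory chain subunits, 8 rose and 0 fell, with a median of 0.34, and of 76 mitochondrial ribosomal proteins 8 rose and 0 fell, with a median of 0.19 that turned to -0.04 with total counts. Both shares of risers were just below the 12% of all tested genes called higher. Atp5g2, a subunit of the ATP synthase ring, went from 140, 128 and 132 CPM to 252, 252 and 264 CPM (0.95 ± 0.04), and Cox4i1 of cytochrome oxidase from 458, 434 and 443 CPM to 781, 762 and 781 CPM (0.81 ± 0.04). Mrpl33 and Mrpl45, of the large mitochondrial ribosomal subunit, rose by 0.95 ± 0.04 and 0.70 ± 0.04. Of the genes that copy and read the mitochondrial genome, chosen after their values were seen, the helicase Twnk fell from 59.3, 58.2 and 54.9 CPM to 26.0, 27.6 and 26.6 CPM (-1.10 ± 0.05). The polymerase Polrmt (-0.47 ± 0.06) and the packaging factor Tfam (-0.23 ± 0.05) were lower but under the fold threshold, which Polrmt passed with total counts (-0.70). Lars2, the mitochondrial leucyl-tRNA synthetase and also chosen after its values were seen, went from 298, 290 and 280 CPM to 2004, 814 and 1154 CPM, where replicate 1 stood apart (2.20 ± 0.22).

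**Figure D3:**
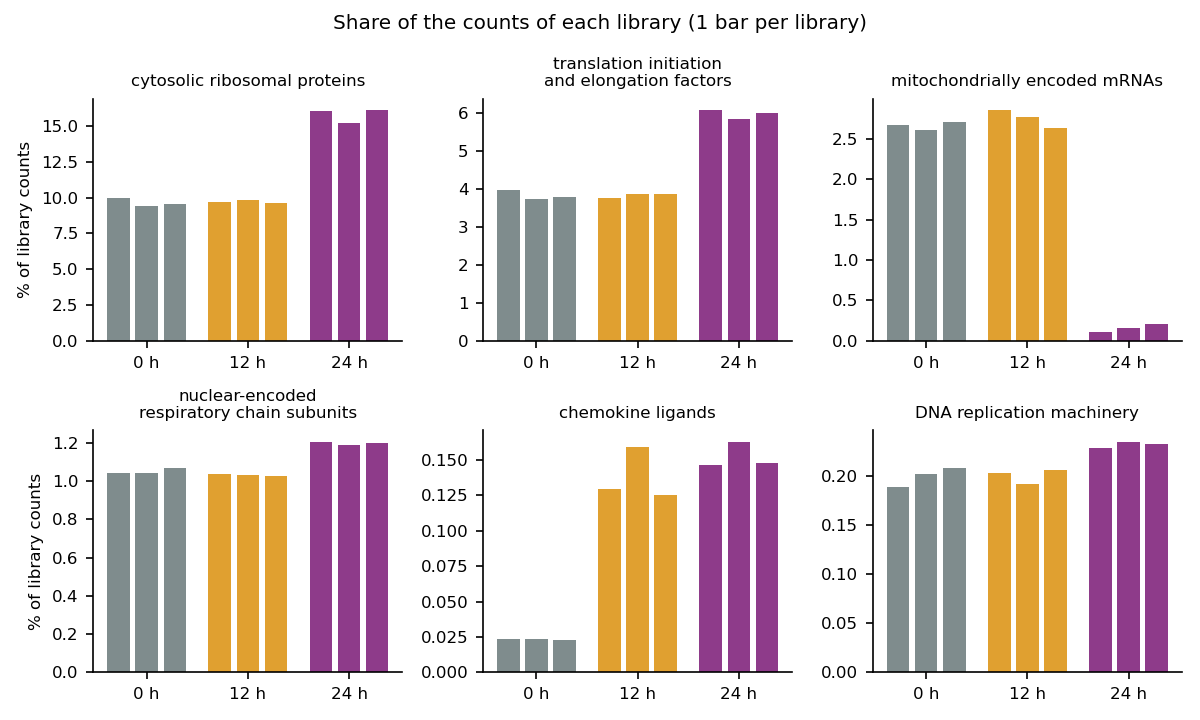
Bars give the percent of each library's counts that 6 gene lists took, with 3 libraries each at 0, 12 and 24 hours and axes that start at 0. Ribosomal proteins took 9.40% to 9.97% at time 0 and 15.2% to 16.1% at 24 hours, while mitochondrially encoded mRNAs dropped to 0.203% or less in every 24 hour library.

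Most genes of DNA replication were higher at 24 hours. Of 45 tested, 24 rose and 0 fell, with a median of 0.63, and at 12 hours edgeR called 0 of them, with a median of 0.05. Of 20 genes of origin licensing and the replicative helicase 13 rose, and of 25 polymerase, clamp and nucleotide genes 11. Orc1, the largest subunit of the origin recognition complex, went from 5.98, 7.40 and 6.10 CPM to 15.9, 19.7 and 16.6 CPM (1.43 ± 0.11). Mcm5, a helicase subunit, went from 48.1, 52.4 and 57.5 CPM to 100.0, 115 and 109 CPM (1.04 ± 0.07), and the sliding clamp Pcna from 75.4, 81.5 and 83.3 CPM to 131, 139 and 140 CPM (0.78 ± 0.05). Fewer of the genes of mitosis were called, 7 of 33 higher and 0 lower with a median of 0.27. Bub1, a spindle checkpoint kinase, rose (1.09 ± 0.06), as did Ccna2 (0.64 ± 0.06), the cyclin of S phase and mitotic entry. Ccnb1, the mitotic cyclin, and Top2a, which untangles chromosomes, were not called, at -0.41 ± 0.05 and -0.22 ± 0.05.

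In the G1 list, 4 of 18 tested members rose and 2 fell, with a median of 0.26, and each riser restrains the cell cycle. Cdkn1a (p21) went from 32.9, 32.9 and 32.5 CPM to 84.6, 120 and 96.6 CPM (1.62 ± 0.09), and Cdkn2d (p19), Cdkn2a (p16 and ARF) and Rb1 rose by 0.80 ± 0.07, 0.65 ± 0.04 and 0.77 ± 0.07. The members that fell were the CDK4 inhibitor Cdkn2c (p18), from 73.5, 72.4 and 73.3 CPM to 16.4, 18.2 and 19.6 CPM (-2.01 ± 0.06), and cyclin D1, Ccnd1, from 232, 233 and 239 CPM to 141, 164 and 154 CPM (-0.61 ± 0.05). Without replicate 1 of 24 hours Ccnd1 was under the fold threshold (-0.56).

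Stress programs differed in their counts. The ATF4 response, which restores amino acid supply when translation initiation is limited, had 12 of 32 tested members higher and 0 lower and a median of 0.52. Atf4 itself went from 233, 261 and 249 CPM to 576, 618 and 574 CPM (1.26 ± 0.05), its target Nupr1 from 16.7, 18.4 and 15.1 CPM to 63.7, 68.4 and 68.0 CPM (2.00 ± 0.07), and the enzymes Mthfd2 and Asns rose by 1.15 ± 0.05 and 1.00 ± 0.05. Of the cytosolic aminoacyl-tRNA synthetases, 5 of 20 rose and 0 fell, among them Nars (0.75 ± 0.04) and Sars (0.70 ± 0.04), which charge asparagine and serine tRNAs. Among chaperones of the endoplasmic reticulum and genes of the unfolded protein response, 1 of 24 tested members was higher, 8 were lower and 15 were not called, with a median of -0.29. The lumenal members, 6 of 20 lower, summed to 13605 to 14186 CPM at time 0 and 13910 to 14410 CPM at 24 hours, so that their sums overlapped. Eif2ak3 (PERK), a sensor of unfolded proteins, went from 33.2, 34.1 and 35.4 CPM to 15.3, 15.7 and 13.5 CPM (-1.20 ± 0.07). Sel1l, which exports misfolded proteins, and Xbp1, the factor that expands the compartment, fell by 1.18 and 0.75 on the log2 scale, and Herpud1 (0.67 ± 0.05; 0.55 and not called with the length and GC correction) was the member that rose.

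Of heat shock proteins and chaperones, 9 of 24 were higher and 2 lower, with a median of 0.41 in a list of which 21 are cytosolic. Hspa4l, an exchange factor of HSP70, rose (1.08 ± 0.05), as did Hsp90ab1 (0.62 ± 0.04), the constitutive HSP90. The genes that fell were the inducible Hspa1a, from 21.7, 21.1 and 22.3 CPM to 6.62, 6.48 and 6.86 CPM, and its near-identical neighbor Hspa1b, from 164, 165 and 167 CPM to 53.2, 44.0 and 55.0 CPM, between which the reads may be split. Of NRF2 and glutathione genes, 7 of 23 rose and 2 fell, with a median of -0.06. Hmox1, heme oxygenase 1, went from 9.30, 7.04 and 8.17 CPM to 18.5, 26.1 and 23.1 CPM (1.47 ± 0.13), and Gpx1, a glutathione peroxidase, rose by 1.33 ± 0.05. Gsta4 (-0.63 ± 0.09) and Gsr (-0.59 ± 0.05), a glutathione transferase and the glutathione reductase, were the lower calls, of which Gsta4 was lost without replicate 1 of time 0 (-0.56) and Gsr without replicates 1 or 3 of 24 hours or 2 or 3 of time 0 (-0.58, -0.58, -0.58 and -0.54) and with DESeq2 (-0.58) or upper-quartile factors (-0.56). Of p53 and its targets, 7 of 23 rose and 4 fell (median 0.17). Plk3, a stress kinase, rose (1.86 ± 0.06), Trp53inp1, an autophagy and death cofactor, fell (-1.57 ± 0.09), and Mdm2, the feedback ligase of p53, measured 50.6, 53.1 and 53 CPM and then 55.2, 51.0 and 53.6 CPM.

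Genes of insulin and FOXO signaling were lower more often than higher, with 2 of 27 tested members higher and 12 lower and a median of -0.50. Irs2, an adaptor of the insulin and IGF1 receptors, went from 49.2, 44.2 and 41.7 CPM to 9.77, 11.1 and 10.6 CPM (-2.10 ± 0.08), and the receptor Igf1r from 240, 223 and 222 CPM to 112, 124 and 120 CPM (-0.94 ± 0.05). Txnip, an inhibitor of glucose uptake, fell from 557, 527 and 503 CPM to 236, 241 and 301 CPM. The transcriptional repressor Bcl6, listed as induced by FOXO, rose from 12.1, 10.7 and 10.3 CPM to 27.9, 38.4 and 32.7 CPM (1.59 ± 0.10). In the BCL2 family 0 of 13 tested members rose and 2 fell, a share near the 16.8% of all tested genes called lower, and the median was 0.16. Under the fold threshold, edgeR had 6 of the 13 higher at an unadjusted p under 0.05, beside 4042 of all 11444 tested genes. The members that fell were Bmf and Bcl2l11, and 9 of the 13 are death-promoting, as these are. Bmf measured 36.7, 29.5 and 31.3 CPM and then 12.0, 14.3 and 12.2 CPM (-1.33 ± 0.09), and Bcl2l11 (BIM) measured 40.9, 38.2 and 39.1 CPM and then 16.4, 14.1 and 17.4 CPM (-1.30 ± 0.07). Bcl2l1, which encodes the survival protein BCL-XL, changed by -0.31 ± 0.06.

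Of 14 tested repressors and outputs of the circadian clock, 6 were lower and 1 higher, Bhlhe40 (0.65 ± 0.08), a call that was lost without replicate 2 of 24 hours (0.54). The activator Arntl (BMAL1) went from 17.3, 19.8 and 18.4 CPM to 36.1, 35.9 and 32.9 CPM (0.93 ± 0.07). The repressor Per2 went from 21.7, 23 and 20.5 CPM to 4.15, 4.85 and 3.67 CPM (-2.35 ± 0.10), and the output factor Dbp fell (-1.29 ± 0.09). Of 18 tested members 3 rose and 7 fell, with a median of -0.35. No library of untreated cells at 24 hours was analysed here, so the phase of the clock and its level cannot be told apart.

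The list of prostate identity and androgen-induced genes had 0 of 11 tested members higher and 5 lower, with a median of -0.53. Foxa1, the pioneer factor of luminal cells, went from 226, 240 and 235 CPM to 87.7, 88.7 and 95.3 CPM (-1.36 ± 0.05). The androgen-induced genes Fkbp5, a cochaperone, Zbtb16, a repressor, and Abcc4, an efflux pump, fell by 0.70, 0.79 and 0.88 on the log2 scale, and the call of Fkbp5 was lost with the length and GC correction (-0.45). Hoxb13, the prostate homeobox factor, was higher but under the threshold (0.43 ± 0.06).

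Mouse Myc measured 80.4, 80.9 and 82.1 CPM at time 0 and 41.4, 42.0 and 39.8 CPM at 24 hours (-0.98 ± 0.04). The table holds the mouse gene and not the human transgene of the line. Whether reads of the transgene were counted on the mouse gene was not tested. Of 10 tested members of the MYC and MAX network, 0 rose and 5 fell, with a median of -0.52. Besides Myc these were the repressors Mnt (-1.41 ± 0.06), Mxd4 (-0.92 ± 0.04) and Mga (-0.97 ± 0.09), and the glucose sensor Mlxip (MondoA, -0.60 ± 0.05). A correction for exon length and GC content ended the calls of Mxd4 (-0.56) and Mlxip (-0.31), and that of Mlxip was also lost without replicate 1 of time 0 (-0.55) and with upper-quartile factors (-0.57).

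Hedgehog, Wnt and Notch genes had the lowest median of any list but the mitochondrial one, at -0.71, with 18 of 35 tested members lower and 3 higher. Wnt members made up 11 of the lower calls. Wnt5a, a ligand of noncanonical Wnt signaling, went from 237, 227 and 224 CPM to 77.7, 79.1 and 80.1 CPM (-1.53 ± 0.04), and the receptor Fzd4 from 69.0, 67.1 and 61.4 CPM to 21.5, 21.2 and 21.3 CPM (-1.62 ± 0.06). Gli1, a target and effector of Hedgehog, was low and went from 1.97, 2.96 and 2.11 CPM to 1.42, 0.849 and 0.675 CPM (-1.27 ± 0.27). The members called higher were Wnt7b (0.63 ± 0.09), a Wnt ligand, and the Notch targets Hes1 (1.49 ± 0.65) and Nrarp (1.09 ± 0.42), the latter both below 0.7 CPM. Without replicate 2 of 24 hours all 3 lost the call (0.53, 1.42 and 1.06), and without replicate 3 of either group Hes1 (1.35 and 1.05) and Nrarp (0.99 and 0.83) did. Hes1 was also lost without replicate 1 of time 0 (1.24) and Nrarp without its replicate 2 (0.97). DESeq2 (1.49), no filter on low counts (1.465) and a replicate block (1.53) ended the call of Hes1 too. A replicate block also ended that of Nrarp (1.13).

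TGF-beta and BMP genes were divided, with 5 of 21 higher and 6 lower and a median of -0.04. Tgfb3, a TGF-beta ligand, went from 112, 113 and 116 CPM to 33.9, 33.8 and 35.1 CPM (-1.72 ± 0.04), while Inhba, which encodes the activin A subunit, and Id1, a BMP target, rose by 1.42 ± 0.18 and 0.77 ± 0.08. Among YAP and TEAD genes 6 of 20 rose and 4 fell, with a median of 0.22. Ccn1 (CYR61), a matricellular target, had risen by 12 hours and went from 81.1, 86.2 and 81.5 CPM to 514, 599 and 532 CPM (2.73 ± 0.06), and Amotl1, a YAP-binding angiomotin, fell from 480, 448 and 440 CPM to 186, 177 and 187 CPM (-1.31 ± 0.04). Ccn2 (CTGF) was at the threshold, not called in the main test (0.57 ± 0.06).

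Matrix and adhesion genes were higher more often than lower, with 13 of 36 tested members up, 3 down and a median of 0.18. The protease Adamts1 fell from 322, 318 and 295 CPM to 143, 145 and 149 CPM (-1.09 ± 0.04). Of 11 tested epithelial and mesenchymal markers 3 rose and 2 fell. Vim (vimentin) went from 232, 233 and 225 CPM to 439, 450 and 442 CPM (0.95 ± 0.04), whereas Esrp2, a splicing regulator of epithelial cells, and Grhl2, a factor that maintains epithelium, fell (-1.08 ± 0.06 and -0.88 ± 0.05). Fn1 (fibronectin, 0.60 ± 0.05) and Ovol1 (0.62 ± 0.13), an epithelial factor, were the other risers, and were under the threshold without replicate 3 of time 0 (Fn1, 0.58) or replicates 2 of 24 hours and of time 0 (Ovol1, 0.46 and 0.55). Of 12 keratins, 4 rose and Krt4 fell (-0.71 ± 0.05). Among the risers the scarce Krt23 (0.80 ± 0.29) was lost without replicate 2 of 24 hours (0.44) or of time 0 (0.69). The basal keratin Krt14 rose (3.49 ± 0.71) but stayed under 0.6 CPM, and the luminal Krt19 (0.64 ± 0.08) was under the threshold without replicate 3 of time 0 (0.57). Krt8, a luminal keratin, lay at the threshold (0.58 ± 0.09) and was not called, but was called with DESeq2 (0.60) or upper-quartile factors (0.62) and without replicate 1 of 24 hours (0.69) or of time 0 (0.64).

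Genes that place or remove histone methylation were lower more often than higher. Of 49 histone lysine methyltransferases and demethylases, 3 rose and 15 fell, with a median of -0.30, and 1 of the risers, the scarce Nsd1 (0.89 ± 0.27), was lost without replicate 1 of 24 hours (0.54). Setd1b and Kmt2d, which methylate lysine 4 of histone H3, went from 89.3, 85.9 and 86.6 CPM to 15.8, 17.5 and 16.9 CPM (-2.38 ± 0.05) and from 167, 156 and 146 CPM to 59.3, 50.8 and 51.1 CPM (-1.54 ± 0.06). Ezh2, the polycomb methyltransferase, rose from 44.8, 49.1 and 46.7 CPM to 85.1, 82.5 and 81.7 CPM. Among 54 splicing factors, 7 rose and 5 fell, shares near or below those of all tested genes, and all 5 were SR proteins or related, a family that binds exons and guides the choice of splice sites. Srrm2, a scaffold of nuclear speckles, went from 453, 461 and 429 CPM to 177, 167 and 174 CPM (-1.37 ± 0.04). Srsf5 (-1.30 ± 0.12) and Srsf2 (-0.93 ± 0.10) fell from time 0 levels that were spread, at 138, 215 and 176 CPM and 120, 177 and 149 CPM, to 78.4, 64.6 and 71.8 CPM and 80.3, 75 and 78.8 CPM. Of the snRNP and hnRNP proteins, which form the splicing machinery and coat nascent RNA, 6 of 40 rose and 0 fell, among them Hnrnpa1 (0.77 ± 0.04) and Snrpe (0.79 ± 0.04).

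Transport and sorting genes had single members that moved far. Of 51 nuclear pore and importin genes, 5 rose and 3 fell, both smaller shares than the 12% and 16.8% of all tested genes, and the median was 0.14 (-0.08 with total counts). Kpna2, an importin that carries cargo into the nucleus, went from 107, 116 and 124 CPM to 30.2, 31.5 and 30.7 CPM (-1.90 ± 0.06). Nup43, a scaffold nucleoporin, rose (0.86 ± 0.08), and 8 members were higher without replicate 3 of time 0. Of 13 tubulins, 4 rose and 2 fell. Tubb5, the most abundant of those called, went from 644, 636 and 650 CPM to 1625, 1703 and 1616 CPM (1.36 ± 0.04), and Tubb2b and Tubb2a, a near-identical pair whose reads may be split, from 7.21, 6.41 and 7.29 CPM to 39.1, 44.2 and 39.4 CPM (2.56 ± 0.08) and from 13.3, 13.9 and 13.3 CPM to 27.9, 30.8 and 28.8 CPM (1.12 ± 0.06). Tuba1c (-0.83 ± 0.05) and the scarce Tubb4a (-0.96 ± 0.24) fell.

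Golgi glycosyltransferases, which build the sugar chains of proteins and lipids, were lower more often than higher, with 13 of 36 down, 1 up and a median of -0.36, beside 16.8% of all tested genes called lower. A4galt, which makes the Gb3 glycolipid, went from 239, 220 and 222 CPM to 38.0, 42.5 and 42.0 CPM (-2.47 ± 0.05). The sialyltransferase St3gal3 was the member that rose, from 14.9, 15.5 and 15.8 CPM to 39.2, 46.3 and 39.5 CPM (1.44 ± 0.07), and it had risen by 12 hours (0.83). Mgat4b, which branches N-glycans, changed by -0.18 ± 0.05.

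Genes of protein turnover were called less often than the 28.8% of all tested genes. Of 32 constitutive proteasome subunits 6 rose and 0 fell, with a median of 0.32, so that a larger share was higher than the 12% of all tested genes. The largest rise was that of the regulatory subunit Psmd8 (320, 299 and 315 CPM, then 666, 705 and 683 CPM, 1.14 ± 0.04). Of 61 lysosome, V-ATPase and autophagy genes 6 rose and 2 fell, with a median of 0.20, so that a smaller share was higher than the 12% of all tested genes. The autophagosome protein Map1lc3a (LC3A) rose (0.87 ± 0.05) and Atg2a, which moves lipids into the growing autophagosome, fell (-0.81 ± 0.05), a call that was lost with the length and GC correction (-0.41).

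In metabolism, 6 of 30 glycolysis and hypoxia genes rose and 0 fell, with a median of 0.15. The glucose transporter Slc2a1 (GLUT1) went from 340, 326 and 324 CPM to 551, 715 and 636 CPM (0.95 ± 0.07), the peptide hormone Adm from 1.93, 1.37 and 1.84 CPM to 5.01, 7.39 and 6.46 CPM (1.88 ± 0.18), and the enzymes Pgk1 and Gapdh rose by 0.76 ± 0.06 and 0.69 ± 0.05. Pkm, pyruvate kinase, was under the threshold (0.32 ± 0.04). The cholesterol and fatty acid list had 5 of 39 tested members higher, 4 lower and a median of -0.01. These shares were near or below the 12% higher and 16.8% lower of all tested genes. Of its cholesterol synthesis enzymes 4 of 19 rose and 1 fell, and of its fatty acid synthesis genes 0 of 10 rose and 1 fell. Cyp51, a lanosterol demethylase, went from 217, 239 and 239 CPM to 455, 458 and 432 CPM (0.96 ± 0.05). The cholesterol exporter Abca1 fell by 1.35 on the log2 scale. Among zinc transporters and metallothioneins 2 of 18 rose and 4 fell. Slc39a4 (ZIP4), which imports zinc, went from 0.228, 0.236 and 0.220 CPM to 3.54, 3.73 and 4.47 CPM (4.09 ± 0.27), while the exporters Slc30a1 and Slc30a5 fell by 1.40 and 1.02 on the log2 scale, and Mt1, a metallothionein, changed by 0.23 ± 0.05.

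**Figure D4:**
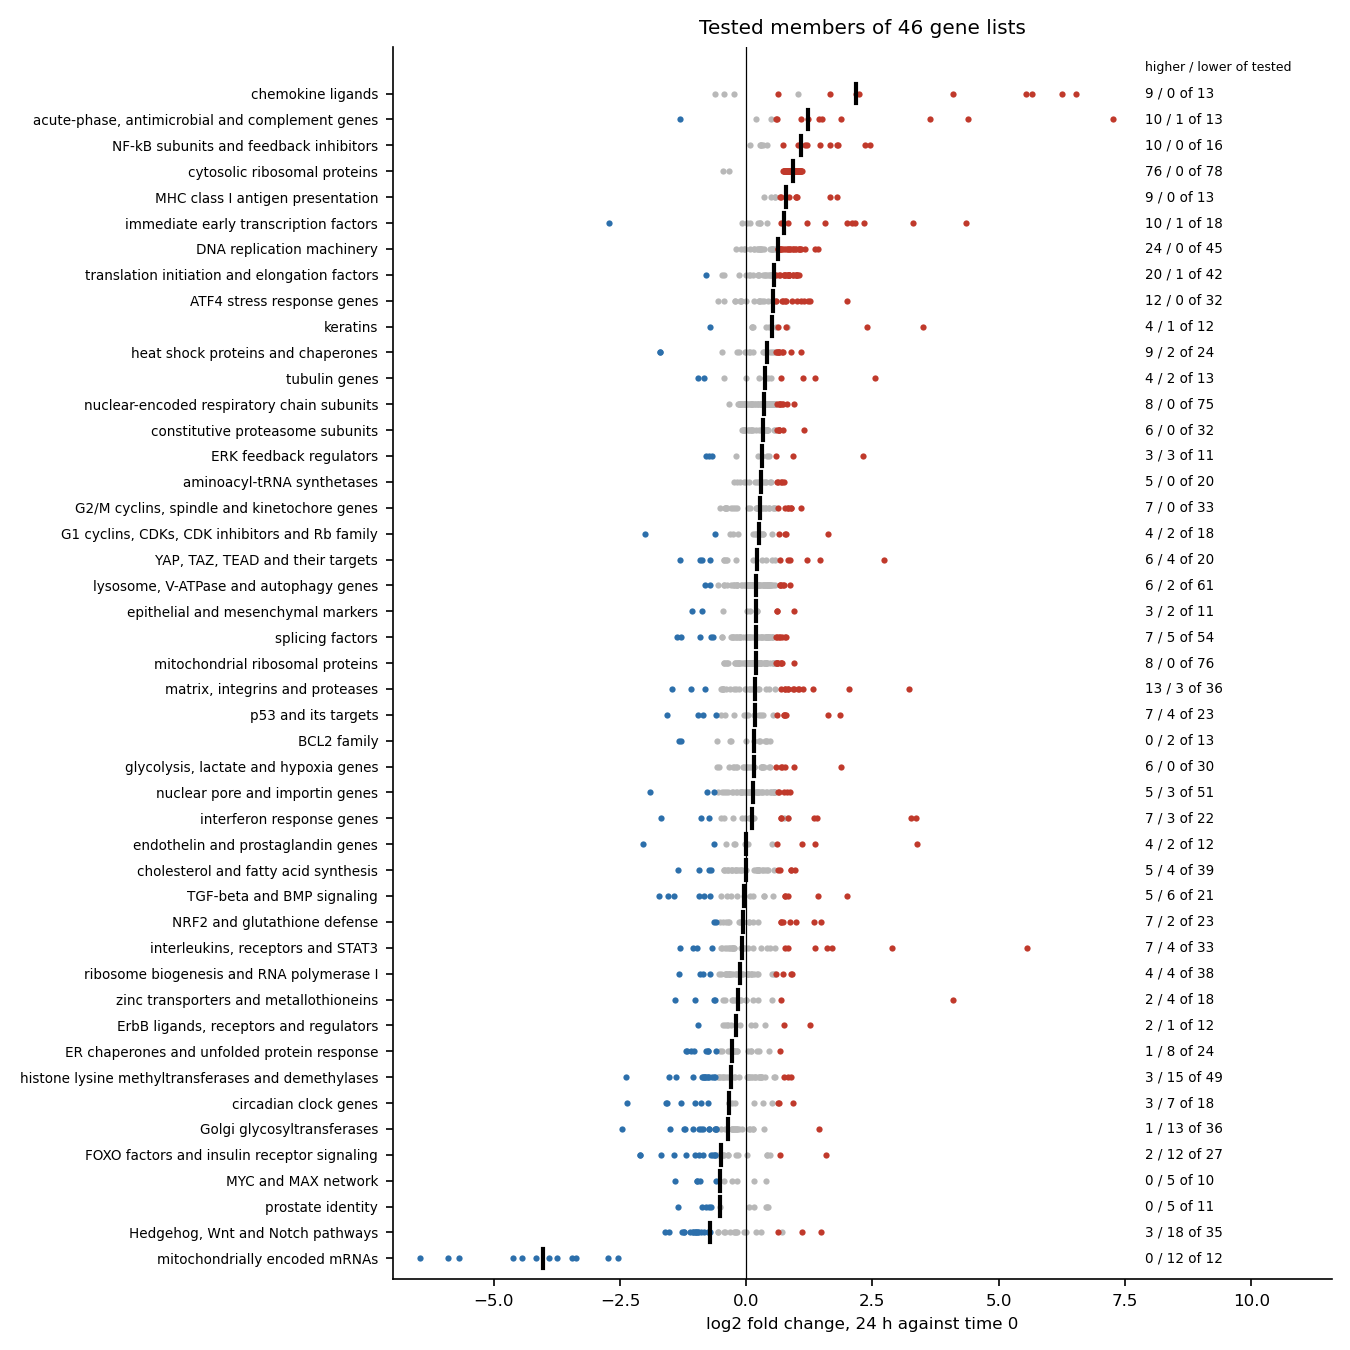
Each dot is the log2 fold change (24 hours over time 0) of 1 tested gene in 46 gene lists, red where edgeR called it higher, blue where lower and grey where not called, with a black bar at the list's median and the counts of higher and lower calls at the right. Chemokines and ribosomal proteins lie to the right of zero and the mitochondrial mRNAs far to the left, while most lists straddle zero.

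Outside the lists, the rule for the largest folds named genes of low level. Pgf, an angiogenic growth factor of the VEGF family, went from 0.249, 0.0858 and 0.165 CPM to 3.76, 6.88 and 6.75 CPM (5.10 ± 0.45). Among the largest falls, the tight junction protein Cldn2 went from 2.72, 2.66 and 2.13 CPM to 0.440, 0.104 and 0.232 CPM (-3.30 ± 0.38), the zinc finger gene Zfp799 from 3.68, 3.30 and 3.43 CPM to 0.391, 0.352 and 0.401 CPM (-3.17 ± 0.22), and the estrogen receptor Gper1 from 2.53, 2.42 and 1.51 CPM to 0.269, 0.373 and 0.211 CPM (-2.89 ± 0.34).

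Genes that rose and genes that fell differed in structure. The union of exons had a median length of 3714 bases in the 1371 annotated genes called higher, 5184 bases in the 1917 called lower and 4480 bases in all 11417, and the GC content was 48.73%, 52.31% and 50.32%. When genes were divided into 5 equal bins by length, the median log2 fold change went from 0.13 in the shortest to -0.11 in the longest, and across 5 bins of GC content from 0.14 to -0.11. Between 12 hours and time 0, the medians of these bins stayed between -0.02 and 0.01. After a correction for length and GC content 1307 genes were higher and 1735 lower, and 21 of 197 named genes lost their call. Besides those given with their groups, these included Ccnd1 (-0.53), Stat2 (-0.57), Cdkn2a (0.53), Hsp90ab1 (0.55), Hes1 (1.31), Id1 (0.53), Krt19 (0.53) and Mrpl45 (0.57).

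The number of exons went with the direction too, in a pattern chosen after the values were seen. Of 273 tested genes with a single exon 124 fell (45.42%) and 30 rose, with a median log2 fold change of -0.55. Without the mitochondrial genes 112 of 261 fell (42.91%), with a median of -0.49. Of genes with 2 exons 30.91% fell, of those with 6 to 10 exons 11.62%, and of those with 21 or more 22.14%. Zinc finger genes whose symbols begin with Zfp, Zkscan or Zscan, also chosen after their values were seen, fell in 126 of 322 cases (39.13%) and rose in 25, with a median of -0.41. The part of RNA quality in these differences was not tested.

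**Figure D5:**
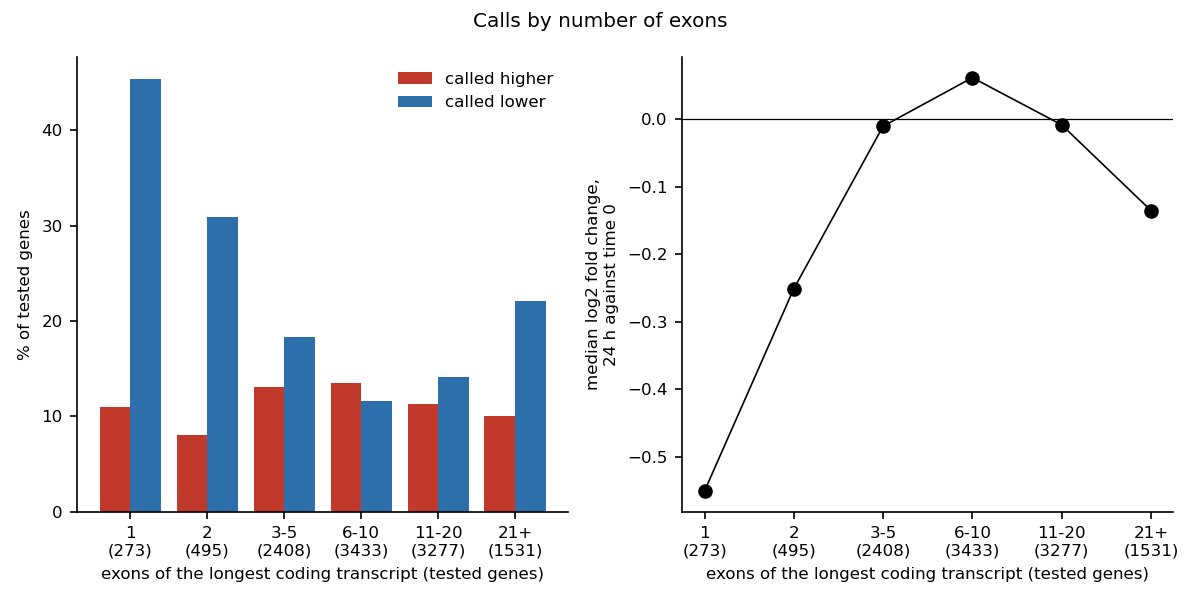
The left panel gives the percent of tested genes called higher (red) and lower (blue) at 24 hours, the right panel their median log2 fold change over time 0, by the number of exons of the longest coding transcript, with the number of genes in brackets. Single-exon genes were lower in 45.42% of cases, with a median of -0.55, and genes with 6 to 10 exons in 11.62%, with a median of 0.06.

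Letters bound by known factors were searched in promoters on both strands, with no test made. Of the windows from 250 bases before to 50 bases after a RefSeq start, TTTNGCGC, a motif of the E2F factors that drive replication genes, was in 3.37% for genes called higher, 1.87% for genes called lower and 2.55% for all tested. The AP-1 letters TGANTCA were in 6.37%, 4.88% and 4.71%, and the E-box CACGTG, which MYC and the clock factors bind, in 8.9%, 11.8% and 10.4%. The amino acid response element TGATGNAA, which ATF4 binds, was in 2.53%, 2.41% and 2.04%, and the cyclic AMP response element TGACGTCA in 4.03%, 2.81% and 3.43%. The ETS letters CCGGAAGT were in 7.68% of higher, 7.69% of lower and 9.11% of all tested genes, the GC box GGGGCGGGG in 22.1%, 22.7% and 22.6%, and the sterol element TCACNCCAC in 1.03%, 0.936% and 1.06%. The heat shock letters GAANNTTC were in 6.18%, 5.35% and 5.51%, and the antioxidant element TGACNNNGC in 14.6%, 12.5% and 14.7%.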

How the data were processed

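RNA-Seq of poly(A) RNA was analysed in 3 MyC-CaP libraries each of 0, 12 and 24 hours. The deposited table holds raw counts per protein-coding gene. Per the labels and the study's methods, the authors made TruSeq libraries, sequenced both ends, trimmed with cutadapt, aligned with STAR to GRCm38.p6 with GENCODE vM24 and counted genes with featureCounts. Whether strand was used is not given in the sources used here, so overlapping and antisense genes, like near-identical copies, are uncertain. No column of per-sample values was left unused (0).

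Counts were tested with edgeR 4.0.16 in R 4.3.3 (filterByExpr, trimmed-mean scaling, quasi-likelihood test) on the 6 libraries of each comparison, two-sided, without a block. Calls needed both an adjusted p (Benjamini-Hochberg) no higher than 0.05 and a change by a factor of 1.5 or more. Fold changes are log2, 24 hours over time 0 unless said otherwise, with their standard errors. CPM values use scaling factors over 9 libraries, and totals and floors cover counting error only. An exact permutation of 3 against 3 libraries cannot give a p below 0.10. No pair of replicates differed by as little as sampling noise (chi-square per degree of freedom 3.412 to 17.54), so none was treated as a repeat deposit of 1 library. The test was tried on simulated counts first.

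The members and the 46 lists were chosen with earlier results of these data known. Lists are described by counts and medians, with no test of their own. Named genes were those of at least 50 normalized counts on average and no overlap between groups with the 12 highest and 12 lowest fold changes, the 6 largest gains and the 6 largest losses in CPM, up to 5 members standing for a list's roles (its extremes or its most abundant member), any member where 5 or fewer of a list were called in a direction, the ErbB receptors, and genes called in opposite directions at 12 and 24 hours. Others are said to have been chosen after their values were seen. Exon length, GC content and exon number came from GENCODE M21 of the same assembly, in which 15309 of 15384 genes (99.5%) had values, and promoters from RefSeq. Alternatives were DESeq2 1.42.0, limma-voom (limma 3.58.1), other scalings and filters, a replicate block, a length and GC correction (loess span 0.3) and leaving out each library. A few of these genes are not reported here. The looser NF-kB letters were added after the data were seen.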

Additional observations from a re-analysis of the deposited data

Results flagged for a closer look

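In 5 genes, edgeR called the 12 hour libraries higher and the 24 hour libraries lower than time 0. They were chosen for these opposite calls, which fix the direction of 24 against 12 hours, so that difference is given as a description. Bahcc1, a chromatin reader gene, measured 84.6, 83.0 and 81.2 CPM at time 0, a mean of 136 CPM at 12 hours and 30.4, 33.5 and 28.0 CPM at 24 hours, so that 24 against 12 hours was -2.13 on the log2 scale. Ifi47, an interferon-induced GTPase, measured 1.54, 1.67 and 1.87 CPM, a mean of 3.70 CPM and 0.586, 0.911 and 0.591 CPM (24 against 12 hours, -2.37). Parp14, an interferon-induced ADP-ribosyltransferase, measured 33.0, 28.8 and 31.1 CPM, a mean of 48.3 CPM and 14.9, 18.2 and 16.5 CPM (-1.52). Rhob, a small GTPase of endosomes, measured 128, 129 and 126 CPM, a mean of 203 CPM and 53.5, 61.2 and 57.1 CPM (-1.80). Zfp469, a zinc finger gene, measured 81.7, 75.7 and 73.5 CPM, a mean of 143 CPM and 47.7, 53.5 and 43.8 CPM (-1.54). The tests of 12 and of 24 hours share the time 0 libraries.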

How the results depend on the processing

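For 24 hours against time 0, the count of called genes was 8119 with the adjusted p alone (3938 higher, 4181 lower) and 2101 with edgeR's glmTreat at 1.5-fold (841 higher, 1260 lower), and 698 were higher and 3008 lower with total counts. Against 12 hours the adjusted p alone gave 8124 (4073 and 4051), glmTreat 1768 (654 and 1114) and total counts 484 and 2830. For 12 hours against time 0 the adjusted p alone gave 1178 (782 and 396), glmTreat 88, with 88 higher and 0 lower (152 and 8 at an unadjusted p under 0.05 in the same test), and the lower count was 5 with all 9 libraries in one fit and 18 without a filter. Leaving out each library in turn gave 3248 to 3312 called (1341 to 1450 higher, 1837 to 1939 lower), 2871 to 3003 against 12 hours (1157 to 1206, 1698 to 1797) and 148 to 198 at 12 hours (144 to 183, 4 to 15). Total counts moved the median of all tested genes by -0.222 and reversed the sign of the list medians for interferon (-0.099), glycolysis (-0.072), p53 (-0.049), BCL2 (-0.06), epithelial and mesenchymal (-0.024), matrix (-0.045), YAP (-0.0), splicing (-0.026), nuclear pore (-0.081), lysosome (-0.021) and mitochondrial ribosome (-0.037) genes, and that of NRF2 genes lay between -0.066 and 0.011 when each library was left out, with 0.0 and 0.011 without replicates 1 and 3 of time 0.

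The shared replicate numbers do not pair the samples (correlations of deviations -0.097, -0.067 and -0.024). A replicate block gave 1342 higher and 1905 lower genes, and 4 of 197 named calls were lost. DESeq2 gave 1405 and 1855. A length and GC correction ended 21 named calls, total counts 32 and glmTreat 29. The cause of these changes was not tested.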

Other observations

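Some genes left out by the filter on low counts were at 0 in every library of a group. Time 0 held 0 counts of Tnf, Adap1, Rbpjl, Gbp2b and Slc4a9, which had at least 3 counts in each 24 hour library, and Adap1, an ARF GTPase regulator, with 29 counts over the 24 hour libraries, was at least 10.6-fold higher than a floor of 3 counts over the group. The 24 hour libraries held 0 counts of Ptpro, Fndc8, Dchs1, Sypl2, Lrp2 and Defb45, and Ptpro, a receptor phosphatase with 30 counts over the time 0 libraries, was at least 9.15-fold lower. These genes were chosen after their values were seen.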
